A study of Mus musculus with 18 samples.

Results

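The transcripts of 10 genes of leukocyte trafficking were followed across 18 RNA libraries of mouse bone marrow cells: 6 chemokine receptors (Ccr9, Ccr7, Cxcr4, Cxcr5, Ccr6 and Ccr2), 3 chemokines (Ccl9, Ccl3 and Ccl4) and the sphingosine 1-phosphate receptor S1pr1. They were taken by name from the deposited table of 32285 genes, and every name matched a single gene. All libraries came from bone marrow iLS cells of C57BL/6 mice that bear CD45.2, isolated by flow cytometry; what iLS stands for is not given in the sources used here. They carried the fusion BRD9-NUTM1 (BN1), carried the fusion AFF1-NUTM1 (AFFN1), or were control cells, with no fusion named and called Mock in the descriptions of day 6. BN1, AFFN1 and control cells were each sampled on 2 days, 6 and 14, which gives 6 groups of 3 libraries. The labels give neither what starts the count of days nor how the fusions were introduced, and do not say whether the libraries of a group came from separate mice or cultures, so the p-values measure the spread between these libraries, which may be technical. Samples of day 6 and of day 14 are named in different ways in their descriptions, so day and experiment cannot be told apart.

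Chemokines are small secreted proteins that guide cells bearing matching receptors, which signal through inhibitory G proteins. In bone marrow, CXCR4 holds progenitors and B-cell precursors close to stromal cells that make its ligand CXCL12. CCR7 and CXCR5 direct lymphocytes within lymph nodes and to B-cell follicles, CCR9 guides cells to the thymus and small intestine through CCL25, and CCR6 and CCR2 respond to CCL20 and CCL2. S1PR1 responds to sphingosine 1-phosphate, which is abundant in blood and lymph, and promotes the exit of lymphocytes from tissues. CCL9, CCL3 and CCL4 are chemokines of the macrophage inflammatory protein group, made by myeloid and activated lymphoid cells.

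The libraries held 14.18 to 18.38 × 1e6 counts each. The leukocyte gene Ptprc, which encodes CD45, was at 185 to 407 CPM (counts per 1e6 counts, scaled by TMM over all libraries) and the summed level of 8 B-lineage genes at 4830 to 12000 CPM in every library. Defining markers of neutrophils were at or near 0: the 8 genes summed to 1.53 CPM or less, with Elane and Ngp at 0 in all 3 groups of day 6. Those of conventional dendritic cells summed to 1.24 CPM or less. The 7 plasmacytoid dendritic genes, with Klk1 at 0 throughout, summed to 80.1 to 212 CPM on day 6 and 282 to 507 CPM on day 14, mostly from Spib, Tlr7 and Tlr9. In bulk libraries such as these, fewer cells of a type and less RNA per cell cannot be told apart.

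In build mm10 (GENCODE M21), Ccr9 (ENSMUSG00000029530, chr9:123678439-123784330) and Ccr2 (ENSMUSG00000049103, chr9:124101950-124113557) lie on the plus strand of a cluster of receptor genes. Ccl9 (ENSMUSG00000019122, chr11:83572919-83578636) and Ccl3 (ENSMUSG00000000982, chr11:83647844-83649355) lie on the minus strand and Ccl4 (ENSMUSG00000018930, chr11:83662584-83664683) on the plus strand of a cluster of chemokine genes. The others stand apart from these: Ccr7 (ENSMUSG00000037944, chr11:99144196-99155077), Cxcr4 (ENSMUSG00000045382, chr1:128588199-128592293), Cxcr5 (ENSMUSG00000047880, chr9:44511787-44561877) and S1pr1 (ENSMUSG00000045092, chr3:115710433-115715072) on the minus strand and Ccr6 (ENSMUSG00000040899, chr17:8236043-8257141) on the plus strand. The 250 bases upstream of a transcript start that RefSeq gives for Ccr9, Ccr2 and Ccl9 are shown because these genes of the clusters were called between fusion and control cells. They were taken from RefSeq sequence of build GRCm38.p6 at chr9:123766961-123767210 on the plus strand, chr9:124101933-124102182 on the plus strand and chr11:83578637-83578886 on the minus strand. For Ccr9 and Ccr2 that start lies within the GENCODE span of the gene, so the Ccr9 window is inside this span and most of the Ccr2 window is. All are written 5′ to 3′ in the direction of transcription. Capitals mark the E-box CANNTG, the sequence that basic helix-loop-helix factors bind.
Ccr9: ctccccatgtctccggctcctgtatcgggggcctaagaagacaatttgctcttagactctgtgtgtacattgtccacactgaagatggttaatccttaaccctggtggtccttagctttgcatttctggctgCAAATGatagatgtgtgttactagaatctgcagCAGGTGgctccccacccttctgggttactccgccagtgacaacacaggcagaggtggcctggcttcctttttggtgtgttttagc
Ccr2: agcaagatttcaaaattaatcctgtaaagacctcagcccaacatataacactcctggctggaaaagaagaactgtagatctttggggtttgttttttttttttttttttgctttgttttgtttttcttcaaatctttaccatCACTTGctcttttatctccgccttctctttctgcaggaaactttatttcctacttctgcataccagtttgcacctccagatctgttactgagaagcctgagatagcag
Ccl9: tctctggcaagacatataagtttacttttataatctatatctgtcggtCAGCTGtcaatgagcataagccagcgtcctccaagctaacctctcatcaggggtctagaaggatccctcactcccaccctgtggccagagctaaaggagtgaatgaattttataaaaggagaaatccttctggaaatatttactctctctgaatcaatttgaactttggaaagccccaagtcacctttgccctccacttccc
The E-box reads the same on both strands and was found in 5 of 7 windows of the members, which cover Ccr9, Cxcr4, Ccr6 (2 starts), Ccr2, Ccl9 and Ccl3, against 66.2% of 32851 mouse windows of that length. TGACAG, the core bound by MEIS factors, was found on either strand in the Ccl9 window only, and in 15.9% of all windows. CCCNNGGG, the core of EBF sites, was in none of the 7 and in 11.8% of all windows. These matches describe the letters of the windows only. Ccr7, Cxcr5, Ccl4 and S1pr1 were not among the windows.

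**Figure D1:**
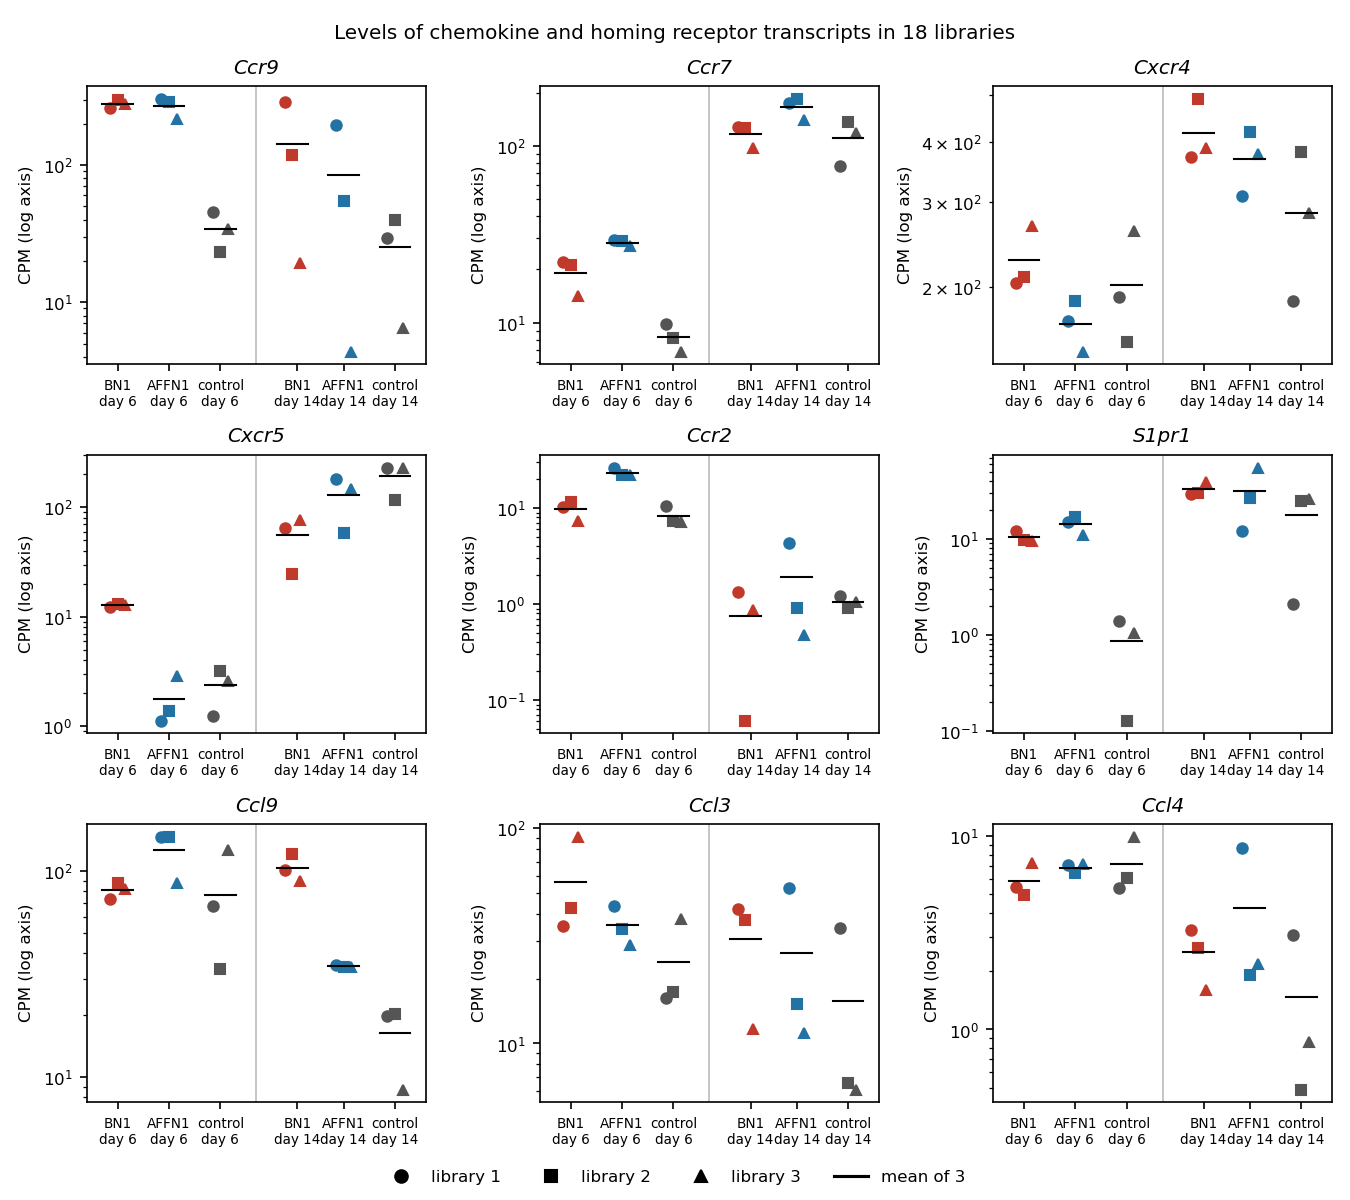
Levels in CPM on a log axis of the 9 genes with enough counts to be tested, in BN1, AFFN1 and control cells of day 6 (left of the grey line) and day 14 (right). Each point is 1 library, with its replicate number given by the symbol, and each black line the mean of 3. On day 6 the BN1 and AFFN1 libraries lie above all control libraries for Ccr9, Ccr7 and S1pr1. On day 14 the BN1 libraries lie above all others of that day for Ccl9.

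On day 6, 4 of the 9 tested genes were called higher in BN1 than in control cells and none lower: Ccr9, Ccr7, Cxcr5 and S1pr1, all of them receptors. Calls are adjusted p-values below 0.05 from edgeR's quasi-likelihood test (Benjamini-Hochberg over all 12068 tested genes), and 17.4% of all tested genes were called in this comparison, 8.83% as higher. The median log2 fold change of the 9 genes was 1.20, against -0.02 for all tested genes. In AFFN1 cells 4 were also called higher and none lower, namely Ccr9, Ccr7, Ccr2 and S1pr1, where 12.7% of all genes were called and 7.79% called higher. Their median was 0.72, against -0.02 for all genes. Both comparisons use the same 3 control libraries. Ccr6, the receptor of CCL20, was too low to test: it had 0 counts in the BN1 libraries, 2 in AFFN1 and 0 in control, and 0 counts allow up to 0.0549 CPM in BN1 and 0.0562 CPM in control.

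Ccr9, the CCL25 receptor, rose with both fusions. It was at 261, 300 and 278 CPM in BN1 cells and at 305, 289 and 217 CPM in AFFN1 cells, against 45.5, 23.3 and 34.3 CPM in control cells. Every fusion library was thus far above every control library. The increase was 8.06-fold in BN1 (log2 fold change 3.01, SE 0.22, adjusted p = 2.18e-05) and 7.82-fold in AFFN1 (2.97, SE 0.22, adjusted p = 4.68e-05). Between BN1 and AFFN1 the log2 difference was 0.04 (SE 0.20, adjusted p = 0.928). When all 18 libraries, with the widely spread day 14 values described below, shared an estimate of spread, Ccr9 was not called (log2 fold change 3.02, adjusted p = 0.113 in BN1; 2.97, adjusted p = 0.15 in AFFN1). The annotated exons of Ccr9 share 1932 bases with Gm17021, a gene on the other strand that reached 0.624 CPM at most, and the strand setting of the counting is not given in the sources used here. They also share 269 bases with Gm17200, a noncoding gene on the same strand, which a strand setting cannot separate. Plasmacytoid dendritic cells are known to bear CCR9, and their 7 markers summed to 80.1 to 112 CPM in BN1 and 142 to 154 CPM in AFFN1, against 131 to 212 CPM in control. Of the 5 tested, none was called higher and 3 lower in BN1, and in AFFN1 1 was called higher (Tlr7) and none lower. The part of such cells in the Ccr9 result was not tested. The 6 T-cell markers summed to 3.74 to 4.71 CPM in BN1 and 1.36 to 1.81 CPM in AFFN1, against 0.448 to 1.45 CPM in control, mostly from Trac in BN1, with Cd3e, Cd3g and Cd8a at 0 in BN1; their part in the result was not tested.

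S1pr1, the egress receptor, had the largest fold change of the 9 genes on day 6 with either fusion. BN1 cells had 12, 9.7 and 9.53 CPM and AFFN1 cells 15, 17 and 10.9 CPM, against 1.4, 0.128 and 1.05 CPM in control cells. The fusion groups overlapped with each other and lay far above control. The rise was 11.6-fold in BN1 (log2 fold change 3.54, SE 0.44, adjusted p = 0.00052) and 16-fold in AFFN1 (4.00, SE 0.44, adjusted p = 0.000431), with a log2 difference of -0.46 between BN1 and AFFN1 (SE 0.35, adjusted p = 0.457). Without the libraries numbered 2 in every group, the AFFN1 value was 3.40 (adjusted p = 0.00114).

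Ccr7, the receptor for CCL19 and CCL21, rose with both fusions. It was at 22.1, 21.2 and 14.2 CPM in BN1 and 29.2, 28.9 and 27.1 CPM in AFFN1, against 9.85, 8.16 and 6.86 CPM in control, and none of the groups overlapped with another. The log2 fold change was 1.20 in BN1 (SE 0.18, adjusted p = 0.00138) and 1.77 in AFFN1 (SE 0.18, adjusted p = 0.00024). The difference of BN1 from AFFN1 was -0.57 (SE 0.17, adjusted p = 0.0599) and did not pass the test.

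Cxcr5 and Ccr2 separated the fusions on day 6. Cxcr5, the CXCL13 receptor of follicular lymphocytes, was at 12.3, 13 and 12.7 CPM in BN1, at 1.12, 1.37 and 2.85 CPM in AFFN1, and at 1.23, 3.21 and 2.6 CPM in control. It rose 5.36-fold in BN1 over control (log2 fold change 2.42, SE 0.36, adjusted p = 0.00134), while AFFN1 and control overlapped (-0.40, SE 0.39, adjusted p = 0.533). Cxcr5 shares 110 exon bases with Bcl9l on the other strand, which was at 82.1 CPM in BN1 and 86.6 CPM in control (adjusted p = 0.609). Ccr2, the CCL2 receptor of monocytes, had the opposite pattern: 10.2, 11.5 and 7.26 CPM in BN1 and 26.4, 22.2 and 21.9 CPM in AFFN1, against 10.6, 7.26 and 7.16 CPM in control. It rose 2.8-fold in AFFN1 (1.49, SE 0.20, adjusted p = 0.00114) and was not called in BN1 (0.20, SE 0.20, adjusted p = 0.527).

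The direct test between the fusions called both genes, 2 of 9, where 11.2% of all genes were called. BN1 had 7.07-fold more Cxcr5 than AFFN1 (log2 difference 2.82, SE 0.37, adjusted p = 0.000832) and Ccr2 was 2.44-fold lower (-1.28, SE 0.20, adjusted p = 0.00217). Ccr2 lost its call when all 18 libraries shared 1 estimate of spread, with adjusted p of 0.153 in AFFN1 against control and 0.247 between the fusions, and the value between the fusions was 0.0543 without the libraries numbered 1. The 8 monocyte and macrophage markers summed to 51.6 to 161 CPM in BN1 and 82.8 to 95.7 CPM in AFFN1, against 61 to 160 CPM in control. Of that list, Itgam was called higher in AFFN1, at 16.6 CPM against 8.14 CPM in control, while Csf1r averaged 2.53 CPM in BN1, 2.88 CPM in AFFN1 and 3.57 CPM in control; the part of such cells in the Ccr2 difference was not tested.

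Cxcr4, the CXCL12 receptor, was the most abundant member per length of transcript in all 6 groups, at 93.1 to 232 CPM per kilobase, and it was not called on day 6. It was at 204, 210 and 268 CPM in BN1 and 170, 187 and 147 CPM in AFFN1, against 191, 154 and 261 CPM in control, and the groups overlapped with control. The log2 fold changes over control were 0.16 in BN1 (SE 0.18, adjusted p = 0.587) and -0.27 in AFFN1 (SE 0.18, adjusted p = 0.36).

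None of the 3 chemokines was called on day 6 without a block. Deviations from group means correlated at 0.139 to 0.332 for same-numbered BN1 and control libraries, and at -0.341 to 0.0798 for different numbers of these groups. Over all groups of day 6 the ranges overlapped, at -0.299 to 0.332 and -0.341 to 0.371, so the pairing is uncertain. With the number as a block in all groups, 5 of the 9 genes were called in BN1, where 14.9% of all genes were: Ccl3 and the 4 named above, all higher. Ccl3, a ligand of CCR1, was at 35.2, 42.7 and 91.5 CPM in BN1 and 43.6, 34 and 28.8 CPM in AFFN1, against 16.3, 17.4 and 38.1 CPM in control. Its highest level in both BN1 and control was in the library numbered 3. In those 2 libraries the 10 immediate early genes, which respond quickly to stimulation, summed to 2020 CPM in BN1 and 999 CPM in control, against 468 to 556 CPM in the other 7 libraries. The 8 monocyte and macrophage markers were also highest there, at 161 CPM in BN1 and 160 CPM in control, against 51.6 to 95.7 CPM in the other 7. The part of either list in the Ccl3 levels was not tested. The Ccl3 log2 fold change was 1.22 in BN1 (SE 0.44, adjusted p = 0.0938; with the block 1.21, SE 0.33, adjusted p = 0.0456) and 0.56 in AFFN1 (SE 0.44, adjusted p = 0.443). Without the libraries numbered 3 in every group, a comparison made after seeing the data, it was 1.20 in BN1 (adjusted p = 0.000383) and 1.20 in AFFN1 (adjusted p = 0.000456). That fit called 3890 genes in BN1 and 3873 in AFFN1, against 2095 and 1528 with all libraries of day 6.

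Ccl9, a ligand of CCR1, was at 73.2, 87.3 and 82.2 CPM in BN1 and 147, 146 and 87.5 CPM in AFFN1, against 67.9, 33.6 and 127 CPM in control. Control library 3, with the marker sums given above, was again the highest of its group, and the part of those genes was not tested. The log2 fold change was 0.07 in BN1 (SE 0.42, adjusted p = 0.928) and 0.72 in AFFN1 (SE 0.42, adjusted p = 0.297). Without the libraries numbered 3, again left out after seeing the data, the AFFN1 value was 1.52 (adjusted p = 0.0215). That fit called 3873 genes in AFFN1, against 1528 with all libraries. Ccl4, a chemokine related to Ccl3, was at 4.94 to 7.26 CPM in BN1 and 6.42 to 7.17 CPM in AFFN1, against 5.37 to 9.96 CPM in control, with log2 fold changes of -0.30 and -0.06 (adjusted p = 0.421 and 0.887).

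**Figure D2:**
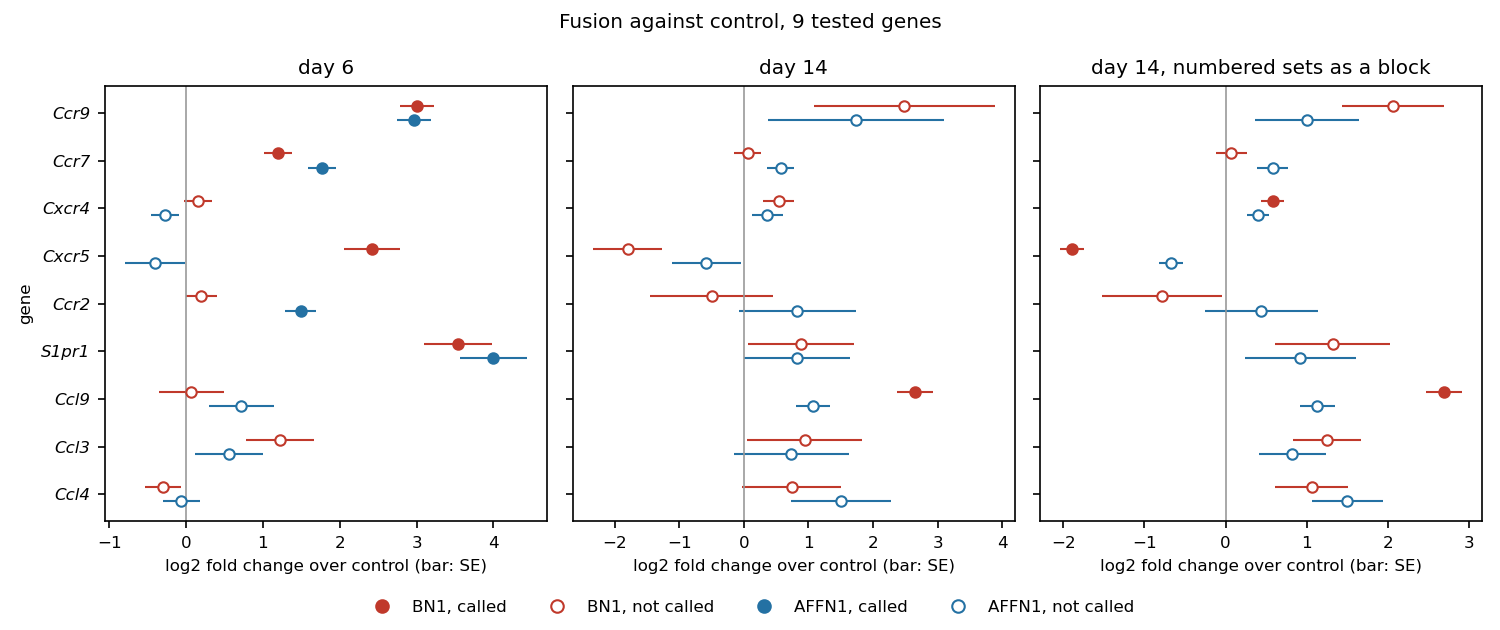
Log2 fold change over control (x axis; bars, SE) of the 9 tested genes in BN1 (red) and AFFN1 (blue), on day 6, on day 14, and on day 14 with the numbered sets as a block. Filled points were called. On day 6 the called points are Ccr9, Ccr7 and S1pr1 with both fusions, Cxcr5 in BN1 and Ccr2 in AFFN1; on day 14 Ccl9 in BN1 is called in both fits, and Cxcr5 and Cxcr4 in BN1 only with the block.

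On day 14 the libraries with the same number varied together, so each comparison was also fitted with the number as a block. Both fusions were again set against the same 3 control libraries. Without the block, BN1 differed from control in Ccl9 alone, 1 of 9 members, where 0.0257% of all genes were called. With the block 3 of 9 were called, where 11.6% of all genes were: Ccl9 and Cxcr4 higher and Cxcr5 lower. In AFFN1 none of the 9 was called in either fit, where 0.0429% of all genes were called by edgeR without the block and 0.558% with it; without the block 6.19% of all genes had an unadjusted p under 0.05, among them Ccl9 and Ccr7 of the members. DESeq2 called Ccl9 (adjusted p = 0.0277). Ccr6 had 1 count in each of the BN1, AFFN1 and control groups of day 14 and was not tested.

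Ccl9 was high in BN1 cells of day 14, intermediate in AFFN1 and low in control. It was at 101, 121 and 89.5 CPM in BN1 and at 35.1, 34.3 and 34.2 CPM in AFFN1, against 19.9, 20.2 and 8.69 CPM in control, with no overlap between any of the 3 groups. The rise in BN1 was 6.3-fold (log2 fold change 2.65, SE 0.28, adjusted p = 0.0215; with the block 2.69, SE 0.22, adjusted p = 0.00132). The call without the block was lost on leaving out control 2 (adjusted p = 0.0569), BN1 1 (0.0677) or BN1 2 (0.0933), or the libraries numbered 1 (0.0632) or 2 (0.288) of every group, with log2 fold changes of 2.54 to 2.85; with the block it was kept without any number. In AFFN1 the value was 1.07 (SE 0.27, adjusted p = 0.442; with the block 1.13, adjusted p = 0.0724). BN1 was 3-fold above AFFN1 (log2 difference 1.58, SE 0.27, adjusted p = 0.16; with the block 1.56, SE 0.21, adjusted p = 0.0361). The 8 monocyte and macrophage markers summed to 41.6 to 74.2 CPM in BN1 and 29.4 to 79.9 CPM in AFFN1, against 21.3 to 43.2 CPM in control, mostly from Lyz2, and Csf1r averaged 0.469 CPM in BN1, 0.695 CPM in AFFN1 and 0.318 CPM in control; their part in the Ccl9 difference was not tested.

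Cxcr5 was lower in BN1 cells of day 14 in the fit with the block, whereas it was higher on day 6. It was at 65, 24.8 and 77.4 CPM in BN1 and 183, 58.7 and 148 CPM in AFFN1, against 231, 116 and 228 CPM in control. All BN1 libraries were below all control libraries, and within each numbered set the order was BN1, AFFN1, control from low to high. The log2 fold change in BN1 was -1.80 (SE 0.54, adjusted p = 0.141), and -1.89 with the block (SE 0.15, adjusted p = 0.000929), a level 3.7-fold lower. In AFFN1 it was -0.58 (adjusted p = 0.905), and -0.67 with the block (adjusted p = 0.0906). Between BN1 and AFFN1 it was -1.22 (adjusted p = 0.577), and also -1.22 with the block (SE 0.15, adjusted p = 0.0237).

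Cxcr4 was higher in BN1 than in control within each numbered set of day 14. It was at 373, 492 and 389 CPM in BN1 and 309, 420 and 378 CPM in AFFN1, against 187, 382 and 285 CPM in control, and the groups overlapped. The log2 fold change in BN1 was 0.54 (SE 0.24, adjusted p = 0.249), and 0.58 with the block (SE 0.14, adjusted p = 0.0306). In AFFN1 it was 0.36 (adjusted p = 0.869), and 0.40 with the block (adjusted p = 0.306).

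Between the fusions on day 14 no member was called without the block, as no gene of the table was (0% called by edgeR, with 992 genes or 8.51% at an unadjusted p under 0.05, and 91 called by DESeq2). With the block 2 of 9 were called, Ccl9 and Cxcr5 as above, where 0.18% of all genes were called.

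The other receptors that were higher with the fusions on day 6 were not called on day 14, in either fit. Ccr9 was spread over a wide range: 289, 118 and 19.2 CPM in BN1 and 195, 55 and 4.36 CPM in AFFN1, against 29.6, 39.6 and 6.5 CPM in control. BN1 was above control within each numbered set, and the libraries numbered 3 were the lowest of every group. The log2 fold change in BN1 was 2.48 (SE 1.40, adjusted p = 0.364; with the block 2.06, SE 0.63, adjusted p = 0.101) and in AFFN1 1.74 (SE 1.36, adjusted p = 0.894; with the block 1.00, SE 0.64, adjusted p = 0.604). Without the libraries numbered 1 and with the block, it was 1.57 in BN1 (adjusted p = 0.000475). That comparison was made after seeing the data and has fewer libraries per group.

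S1pr1 was at 29.5, 29.8 and 39.6 CPM in BN1 and 12.2, 26.9 and 55.3 CPM in AFFN1, against 2.12, 24.6 and 26.2 CPM in control on day 14. Control library 1 stood far below its group. The log2 fold changes were 0.88 in BN1 (SE 0.82, adjusted p = 0.587) and 0.82 in AFFN1 (SE 0.82, adjusted p = 0.925). Ccr7 was at 97.4 to 128 CPM in BN1 and 140 to 185 CPM in AFFN1, against 77.3 to 137 CPM in control, with log2 fold changes of 0.06 (adjusted p = 0.892) and 0.57 (adjusted p = 0.749). Ccr2 was low on day 14, at 0.0612 to 1.34 CPM in BN1 and 0.477 to 4.3 CPM in AFFN1, against 0.914 to 1.21 CPM in control. Its log2 fold changes were -0.50 in BN1 (SE 0.95, adjusted p = 0.795) and 0.83 in AFFN1 (SE 0.91, adjusted p = 0.93).

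Ccl3 varied by numbered set on day 14. It was at 42.2, 37.6 and 11.7 CPM in BN1 and 52.9, 15.2 and 11.2 CPM in AFFN1, against 34.6, 6.52 and 6.1 CPM in control. The library numbered 1 was the highest and that numbered 3 the lowest in each group. The log2 fold change was 0.94 in BN1 (adjusted p = 0.595; with the block 1.25, SE 0.42, adjusted p = 0.104) and 0.73 in AFFN1 (adjusted p = 0.941; with the block 0.82, adjusted p = 0.494). Ccl4 was low, at 1.61 to 3.28 CPM in BN1 and 1.91 to 8.67 CPM in AFFN1, against 0.488 to 3.08 CPM in control.

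**Figure D3:**
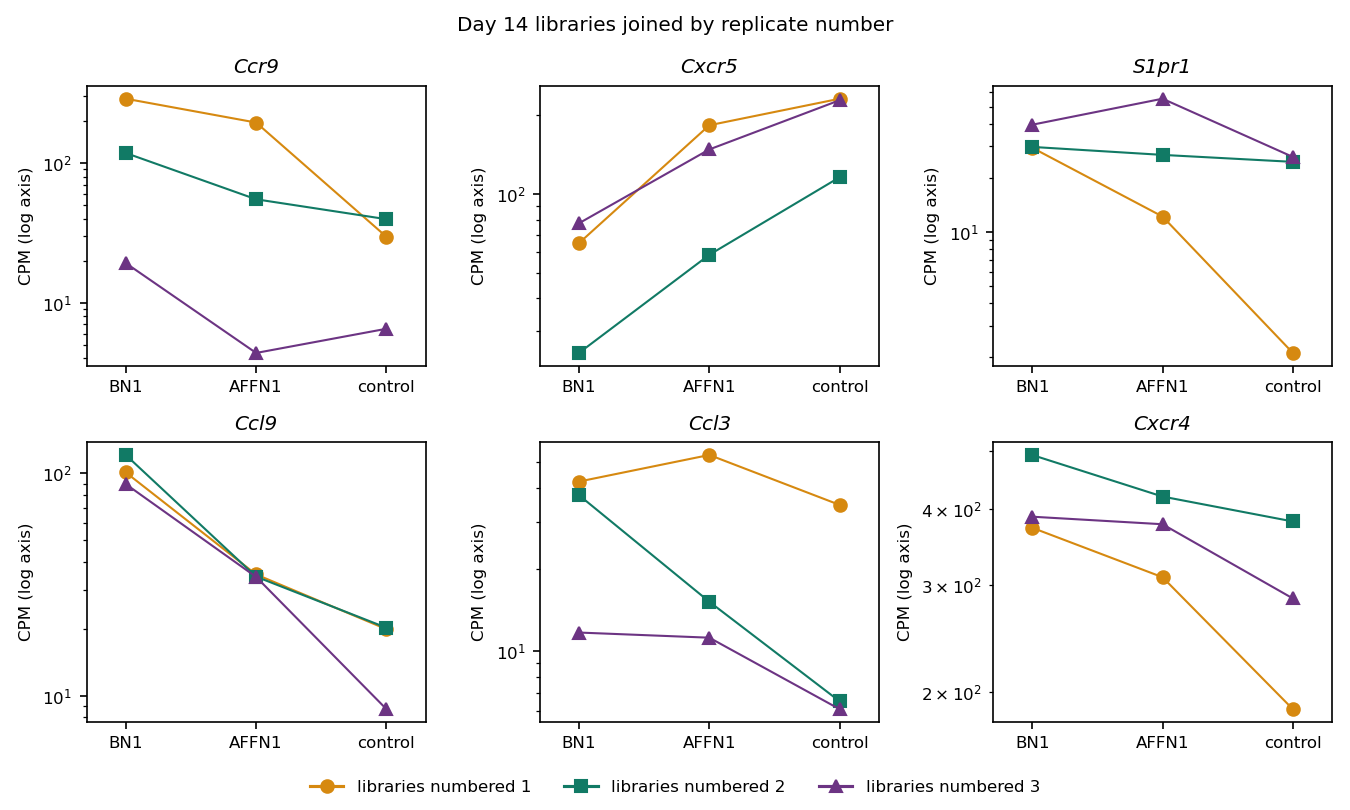
Levels in CPM (log axis) of 6 genes in BN1, AFFN1 and control libraries of day 14, with a line joining the libraries of each replicate number. For Cxcr5 each of the 3 lines climbs toward control, for Ccl9 each falls toward control, and for Ccr9 and Ccl3 the lines stand apart by number, with Ccr9 at 289 CPM in BN1 library 1 and 19.2 CPM in BN1 library 3.

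In control cells 6 of the 9 genes differed between day 14 and day 6, where 43.9% of all genes were called (12567 tested, fitted on all 18 libraries). Cxcr5, Ccr7 and S1pr1 were higher on day 14. Cxcr5 averaged 192 ± 65.3 CPM on day 14 and 2.35 ± 1.01 CPM on day 6 (SD, n = 3 each), 81.9-fold higher (log2 fold change 6.36, SE 0.60, adjusted p = 3.05e-06). Ccr7 averaged 111 ± 30.4 CPM on day 14 and 8.29 ± 1.5 CPM on day 6, 13.4-fold higher (3.74, SE 0.23, adjusted p = 9.96e-09). S1pr1 averaged 17.6 ± 13.5 CPM on day 14 and 0.86 ± 0.657 CPM on day 6, 19.8-fold higher (4.31, SE 0.87, adjusted p = 0.00129).

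Ccr2 and the chemokines Ccl9 and Ccl4 were lower in control cells on day 14. Ccr2 averaged 1.06 ± 0.147 CPM on day 14 and 8.35 ± 1.98 CPM on day 6 (log2 fold change -2.97, SE 0.65, adjusted p = 0.00181). Ccl9 averaged 16.3 ± 6.57 CPM on day 14 and 76.3 ± 47.5 CPM on day 6 (-2.23, SE 0.40, adjusted p = 0.000485), and -1.64 without control 3 of day 6 (adjusted p = 0.00174). Ccl4 averaged 1.48 ± 1.4 CPM on day 14 and 7.15 ± 2.46 CPM on day 6 (-2.26, SE 0.61, adjusted p = 0.00689), and -3.40 without control 1 of day 14 (adjusted p = 0.000671). Monocyte genes were lower with them: the 8 markers summed to 21.3 to 43.2 CPM on day 14 and 61 to 160 CPM on day 6, Csf1r averaged 0.318 CPM on day 14 and 3.57 CPM on day 6 (adjusted p = 0.00633), and Lyz2 21 CPM on day 14 and 86.9 CPM on day 6 (adjusted p = 0.00795). Their part in the 3 differences was not tested. Ccr9 (log2 fold change -0.45, adjusted p = 0.752), Ccl3 (-0.60, adjusted p = 0.546) and Cxcr4 (0.49, adjusted p = 0.0943) were not called. With the replicate number as a block, where 50.9% of all genes were called, Cxcr4 was (0.46, adjusted p = 0.0371).

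The effect of BN1 on 3 of the 9 genes differed between day 14 and day 6 by the test of that difference, where 2.97% of all genes were called; with the block the same 3 were called, where 5.16% of all genes were. For Cxcr5 the BN1 effect on day 14 minus that on day 6 was -4.22 on the log2 scale (SE 0.72, adjusted p = 0.0038). For Ccl9 it was 2.59 (SE 0.55, adjusted p = 0.0159), against 2.52 without BN1 1 of day 6 (adjusted p = 0.0501) and 2.00 without control 3 of day 6 (adjusted p = 0.0286). BN1 cells had 104 ± 15.8 CPM of Ccl9 on day 14 and 80.9 ± 7.14 CPM on day 6 (SD, n = 3 each), a difference that was not tested, while control cells differed between the days as above. For Ccr7 it was -1.13 (SE 0.29, adjusted p = 0.0462), a call that 9 of 12 fits without a single library lost.

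For AFFN1 no change of effect was called among the 9 without the block by edgeR, where 1.46% of all genes were called and 9.71% had an unadjusted p under 0.05. Among the 9 this held for Ccr7 (-1.19, SE 0.29, adjusted p = 0.0541; with the block, where 2.54% of all genes were called, -1.20, adjusted p = 0.0187) and S1pr1 (-3.17, SE 1.10, adjusted p = 0.277). The block also covers day 6, where same-numbered AFFN1 and control libraries correlated at only -0.299 to 0.0294. Without control 1 of day 14, the low library, S1pr1 changed by -3.70 in AFFN1 (adjusted p = 0.0232) and by -3.17 in BN1 (adjusted p = 0.0379; -2.65 and 0.307 with it).

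Per kilobase of transcript, the order of the 10 genes changed with the day. Cxcr4 was first and Ccr6 last in every group. On day 6 Ccr9 had rank 3 in BN1, at 53.9 ± 3.77 CPM per kilobase (SD, n = 3), within the spread of Ccl3 above it at 73.8 ± 39.9. It had rank 2 in AFFN1, at 52 ± 8.97, within the spread of Ccl3 at 46.3 ± 9.8, and rank 5 in control, at 6.62 ± 2.14. Ccl3 had rank 2 in control cells of day 6, at 31.2 ± 16.1, within the spread of Ccl9 at 25.4 ± 15.8. On day 14 Ccr7 had rank 2 in BN1, at 59.2 ± 8.59, and in AFFN1, at 84.4 ± 12, and rank 3 in control, at 56.1 ± 15.4, within the spread of Cxcr5 at 67.5 ± 22.9. Cxcr5 had rank 6 in BN1 of day 14, at 19.6 ± 9.66, and rank 8 in control of day 6, at 0.826 ± 0.355. The lowest ranks on day 14 went to Ccl4, Ccr2 and Ccr6, in that order, in each of the 3 groups.

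Ccr9 and Ccr2 lie at the ends of a stretch of chromosome 9 that holds 10 genes of the table. Of its 4 tested genes (Ccr9, Lztfl1, Fyco1 and Ccr2), all 4 were called higher in AFFN1 than in control on day 6, and 2 in BN1 (Ccr9 and Fyco1), where 7.79% and 8.83% of all genes were called higher. Ccr9 and Ccr2 are among these counts and were described above. Lztfl1, which encodes a cilium-associated protein, and Fyco1, an adaptor of autophagosome transport, changed less, at 82.1 CPM in AFFN1 and 60 CPM in control for Lztfl1 (adjusted p = 0.0262) and at 41.7 CPM in AFFN1 and 28.9 CPM in control for Fyco1. Ccr1, Ccr3, Ccr1l1, Cxcr6 and Xcr1, the receptor genes between them, were below the level for testing, at 1.3 CPM or less in any library.

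**Figure D4:**
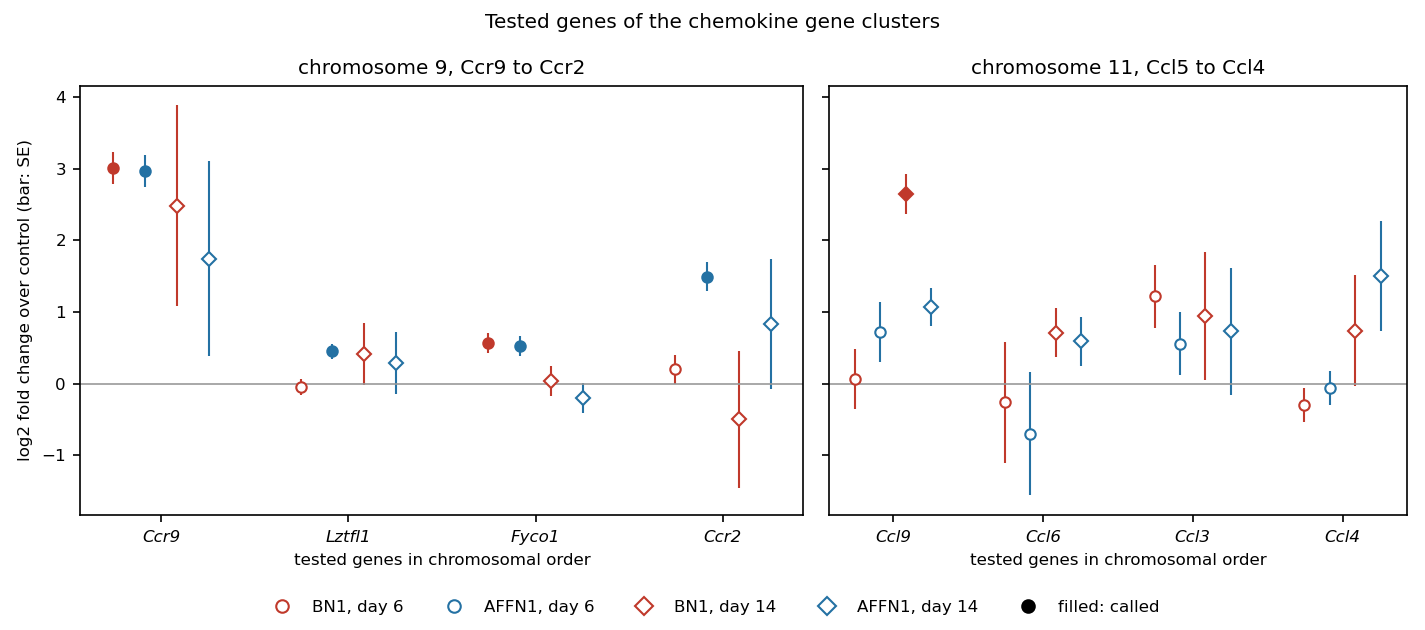
Log2 fold change over control (y axis; bars, SE) of the tested genes of the chromosome 9 cluster (left) and the chromosome 11 cluster (right), in chromosomal order, for BN1 (red) and AFFN1 (blue) on day 6 (circles) and day 14 (diamonds); filled points were called. In AFFN1 cells of day 6 all 4 genes on the left are called higher, and on the right the single called point is Ccl9 in BN1 cells of day 14.

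Ccl9, Ccl3 and Ccl4 lie in a cluster on chromosome 11 with Ccl5 and Ccl6. Of the 4 tested genes there (Ccl9, Ccl6, Ccl3 and Ccl4), Ccl9 in BN1 on day 14 was the only call of either fusion against control without the block. Ccl6, a close relative of Ccl9, was at 8.33, 8.63 and 4.34 CPM in BN1 and 8.97, 5.17 and 5.52 CPM in AFFN1, against 3.39, 4.81 and 4.71 CPM in control on day 14. Reads of such related genes can be split by the counting, which makes the lower of them less certain.

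Of 36 other chemokine ligands, 7 had enough counts to test on day 6 and 3 on day 14, and none was called with either fusion against control, on either day, with or without the block. Without the block, the shares of all genes called on day 6 were 17.4% in BN1 and 12.7% in AFFN1. On day 14 they were 0.0257% and 0.0429%. With the block they were 14.9% and 11.2% on day 6, and 11.6% and 0.558% on day 14. In control cells 3 of 7 tested ligands were lower on day 14, where 43.9% of all genes were called. They were Cxcl1, Ccl2 and Cxcl5, which attract neutrophils and monocytes. Ccl2 averaged 0.312 CPM on day 14 and 3.85 CPM on day 6 (log2 fold change -3.60, SE 1.01, adjusted p = 0.00877).

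Of 17 other receptors on the list, 4 were tested on day 6. BN1 gave 1 call and AFFN1 2 calls against control, where 17.4% and 12.7% of all genes were called. Ccrl2, a chemokine-binding receptor that does not signal through G proteins, fell in BN1, to 0.459 CPM against 1.37 CPM in control (log2 fold change -1.59, SE 0.38, adjusted p = 0.0169). Ackr2, a scavenger of inflammatory chemokines, rose in AFFN1, to 7.67 CPM against 1.82 CPM in control (2.04, SE 0.58, adjusted p = 0.0449). Cxcr3, a receptor of interferon-induced chemokines, fell in AFFN1, to 1.51 CPM against 2.84 CPM in control (-0.91, SE 0.24, adjusted p = 0.0328). With the replicate number as a block neither Ackr2 nor Cxcr3 was called in AFFN1, where 11.2% of all genes were. Ccrl2 stayed called in BN1 (-1.56, SE 0.39, adjusted p = 0.0321). Between the fusions, BN1 was lower than AFFN1 in Ackr2 (-2.70, adjusted p = 0.0179) and Ccrl2 (-1.97, adjusted p = 0.00684). These were 2 of the 4 tested, where 11.2% of all genes were called. On day 14 only 3 of these 17 receptors were tested, and none was called against control, with or without the block. The shares of all genes called without the block were 0.0257% in BN1 and 0.0429% in AFFN1. With it they were 11.6% and 0.558%.

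Of the 14 genes of sphingosine 1-phosphate and related lipid guidance beside S1pr1, 11 were tested and 2 fell in BN1 on day 6, with none called in AFFN1. The shares of all genes called were 17.4% in BN1 and 12.7% in AFFN1. S1pr3, another receptor of this lipid, was at 0.714, 0.0574 and 0.17 CPM in BN1 and 7.67, 8.21 and 8.15 CPM in AFFN1, against 5.54, 5.14 and 3.8 CPM in control. It was lower in every BN1 library than in any other library of day 6, by 14.6-fold against control (log2 fold change -3.87, SE 0.48, adjusted p = 0.00043) and 24.2-fold against AFFN1 (-4.60, SE 0.48, adjusted p = 0.000208). S1pr2, which restrains migration, was at 3.72 CPM in BN1 against 6.49 CPM in control (-0.81, SE 0.22, adjusted p = 0.0325). The BN1 effect on S1pr3 on day 14 minus that on day 6 was 3.86 (SE 0.69, adjusted p = 0.00329), and on day 14 it averaged 4.3 CPM in BN1 and 4.33 CPM in control. On day 14, with the block, Sgpp1, a phosphatase of sphingosine 1-phosphate, was lower in BN1 than in control (-0.93, SE 0.15, adjusted p = 0.0107) and Sgpl1, the lyase that degrades it, higher (0.47, SE 0.11, adjusted p = 0.0242). These were 2 of 11 tested, where 11.6% of all genes were called. Without the block none of the 11 was called in BN1, where 0.0257% of all genes were. In control cells Cd69, which takes S1PR1 off the cell surface, was lower on day 14, at 48.9 CPM against 200 CPM on day 6 (-2.03, SE 0.58, adjusted p = 0.0118).

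Of 31 genes of receptor signalling and desensitisation, 29 were tested on day 6, of which 3 rose and 4 fell in BN1 (3 and 3 with the block), and 3 rose and 3 fell in AFFN1. Of all tested genes 17.4% were called in BN1 (14.9% with the block) and 12.7% in AFFN1. Gnb4, a G protein beta subunit, was at 46.8, 49 and 52.9 CPM in BN1 and 9.85, 10.2 and 7.66 CPM in AFFN1, and had 2, 0 and 3 counts in the control libraries (adjusted p = 7.15e-08 in BN1 and 4.49e-06 in AFFN1). BN1 was 5.33-fold above AFFN1 (log2 difference 2.41, SE 0.17, adjusted p = 1.57e-05). In control cells Gnb4 averaged 8.4 CPM on day 14 and 0.0874 CPM on day 6 (log2 fold change 6.39, SE 1.12, adjusted p = 0.000405). Its change of effect, day 14 minus day 6, was -8.63 for BN1 (SE 1.31, adjusted p = 0.00132) and -6.38 for AFFN1 (SE 1.36, adjusted p = 0.0264). Rgs18, which shortens G protein signals, rose 4.71-fold in BN1 and 4.79-fold in AFFN1 (adjusted p = 0.0107 and 0.0127). Pik3r5, the regulatory subunit of the phosphoinositide 3-kinase downstream of G proteins, fell in both, to 18.3 CPM in BN1 and 25.3 CPM in AFFN1 against 38.2 CPM in control (adjusted p = 0.000421 and 0.0143). Grk5, a kinase that desensitises receptors, fell in BN1 (-0.93, SE 0.14, adjusted p = 0.00134), and Gng2, a G protein gamma subunit, rose in AFFN1 (0.86, SE 0.19, adjusted p = 0.015). On day 14, 28 were tested and none was called in either fusion without the block. The shares of all genes called in those fits were 0.0257% in BN1 and 0.0429% in AFFN1. With the block Rgs2 (0.67, SE 0.13, adjusted p = 0.0181) and Arrb1 (0.57, SE 0.14, adjusted p = 0.0288) rose in BN1, where 11.6% of all genes were called.

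The genes most like each member over the 18 libraries were taken by Pearson correlation of log2 CPM among 9580 or 9581 genes with a mean of at least 5 CPM. These values describe libraries that share days, sets and depth, and most follow the difference between days. The nearest genes were Rapgef6 (r = 0.930) and Lims1 (0.918) for Ccr9, Irf2 (0.976) for Ccr7, Fcho1 (0.965) for Cxcr4 and Irak1 (0.974) for Cxcr5. They were Taf15 (0.973) and Mpeg1 (0.950) for Ccr2, Cd27 (0.973) for S1pr1, Parp4 (0.917) for Ccl9, Tanc1 (0.869) for Ccl3 and Rsad2 (0.885) for Ccl4. Among the members themselves, Ccr7 and Cxcr5 (r = 0.822), Ccl3 and Ccl4 (0.798) and Ccr9 and Ccl3 (0.779) were the most alike, and Cxcr4 and Ccr2 the most opposed (-0.844).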

How the data were processed

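RNA was extracted from sorted cells on columns, and libraries were made from poly(A) RNA with a stranded kit, per the labels' protocols. The deposited table holds expected counts per gene, which the authors made with tools that include STAR and RSEM on mm10, per the submitters' processing notes. Neither those notes nor the labels give tool versions, the gene annotation or the strand setting. Per library, 1.74 to 2.12% of values were fractional, and all were rounded before use. In R 4.3.3, genes were filtered with filterByExpr (minimum count 10), scaled by TMM and compared with edgeR 4.0.16's quasi-likelihood test with robust estimation; tests were two-sided, with Benjamini-Hochberg adjustment over all tested genes of each of 9 comparisons. Comparisons within a day used its 9 libraries, those across days all 18. A CPM is scaled by TMM over all 18 libraries. The SE is the absolute log2 fold change from the unshrunk coefficients of the fit over the square root of F. The log2 fold changes given are edgeR's shrunken ones. The scripts were tested on simulated data.

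The descriptions give same-numbered libraries of day 14 a shared code, and their deviations from group means correlated at 0.261 to 0.599 (9 pairs), against -0.474 to 0.0325 for different numbers (18 pairs), so day 14 was also fitted with the replicate number as a block. On day 6 same-numbered BN1 and control libraries correlated at 0.139, 0.313 and 0.332, against -0.341 to 0.0798 for different numbers of these groups. Over all groups same-numbered libraries correlated at -0.299 to 0.332, within the -0.341 to 0.371 of different numbers, so pairing on day 6 is uncertain. The block of day 6 was nonetheless fitted on all libraries of that day, AFFN1 included. Between replicates chi-square per degree of freedom was 3.84 or more, so none was a duplicate. Positions and transcript lengths came from GENCODE M21, in which 99.6% of identifiers and all 10 genes were found. Alternatives were RLE scaling, no filter, DESeq2 1.42.0, the block, other sets of libraries in the fit and leaving out libraries; leaving out a number in every group was added after seeing the data. The genes, lists, tests and marker lists were chosen with earlier results of these data known. Named were all members, up to 4 called genes per other list and comparison with the largest change, and up to 3 genes most like each member; Ccr9's neighbours in its cluster were named for their position.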

Additional observations from a re-analysis of the deposited data

Results flagged for a closer look

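In 3 genes the BN1 effect differed between the days by the interaction term of the fit on all 18 libraries (edgeR's quasi-likelihood test, n = 3 libraries per group). For Cxcr5 the difference, day 14 minus day 6, was -4.22 on the log2 scale (adjusted p = 0.0038), and -4.36 with the replicate number as a block (adjusted p = 1.39e-05). On day 6 BN1 was higher than control in 3 of 3 libraries by number, and on day 14 lower in 3 of 3. For Ccl9 the difference was 2.59 (adjusted p = 0.0159), and 2.55 with the block (adjusted p = 0.0396). For Ccr7 it was -1.13 (adjusted p = 0.0462), and -1.11 with the block (adjusted p = 0.0177). The AFFN1 effect on Ccr7 differed between the days by -1.20 with the block (adjusted p = 0.0187), and missed the threshold without it. That block also covers day 6, where same-numbered AFFN1 and control libraries correlated at only -0.299 to 0.0294, so the call with it is uncertain. Day and experiment cannot be told apart in these tests.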

How the results depend on the processing

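Among refits of the called differences of members, 261 remained called and 22 lost the call, all in the same direction. Those lost were Ccr9 and Ccr2 of day 6 with all 18 libraries in the fit, Ccr2 between the fusions without number 1, Ccl9 of day 14 and the changes of the BN1 effect on Ccl9 and Ccr7, for which refitting on the groups compared gave adjusted p of 0.0609 and 0.1; the cause was not tested. The BN1 effect on Ccr7 gave adjusted p of 0.006 to 0.137 over its alternatives, and was lost on leaving out any single library of BN1 or control other than control 1 of day 6, control 1 of day 14 and BN1 3 of day 6. Genes called on day 6 numbered 1032 for BN1, 676 for AFFN1 and 624 between the fusions with all 18 libraries in the fit, against 2095, 1528 and 1349, and members called 3, 2 and 1. On day 14 BN1 against control gave 3 genes, and 5 with RLE scaling, 17 with no filter, 743 by DESeq2, 1348 with the block and 691 with all 18 libraries; members called were 1, and 2 by DESeq2, 3 with the block and 2 with all 18 libraries. AFFN1 against control gave 5 genes, and 25 with no filter, 77 by DESeq2 (1 member), 65 with the block and 51 with all 18 libraries. BN1 against AFFN1 gave 0, and 5, 91 (1 member), 21 (2 members) and 76 under the same settings. For the change of the BN1 effect, DESeq2 gave 605 genes (619 on the groups compared only) and the block 649, against 373, and edgeR on the groups compared only called 1 member in place of 3. For the change of the AFFN1 effect, DESeq2 gave 342 genes and 1 member (328 and 1 on the groups compared only) and the block 319 and 1, against 183 and 0. Leaving out libraries gave 473 to 3890 genes and 4 to 5 members for BN1 on day 6, 289 to 3873 and 4 to 6 for AFFN1, and 304 to 1741 and 1 to 3 between the fusions, lowest without number 1 and highest without number 3. Without control 3 of day 6 alone, BN1 gave 3495 genes and AFFN1 2250. On day 14 the ranges, with and without the block, were 1 to 684 genes and 0 to 4 members for BN1, 0 to 263 and 0 to 2 for AFFN1, and 0 to 124 and 0 to 3 between the fusions. For the changes of effect they were 267 to 381 genes and 1 to 4 members for BN1, and 110 to 214 and 0 to 2 for AFFN1. Between the fusions on day 6, where same-numbered libraries correlated at -0.216 to 0.196, the block added a call for Ccr7 (-0.60, adjusted p = 0.0224). Reversals touched uncalled values only, and all but 1 came from leaving out libraries. The exception is the change of the BN1 effect on Ccl3, at 0.03 with the block, which ran from -0.79 to 1.04 on leaving out libraries. On the log2 scale, for BN1 against control on day 6 the ranges were -0.33 to 0.67 for Ccl9, -0.47 to 0.04 for Ccl4 and -0.01 to 0.42 for Ccr2. For AFFN1 against control on day 6 they were -0.25 to 0.27 for Ccl4, -0.91 to 0.05 for Cxcr5 and -0.51 to 0.04 for Cxcr4, and for Ccr9 between the fusions -0.10 to 0.18. For BN1 against control on day 14 they were -0.22 to 0.30 for Ccr7 and -1.21 to 0.05 for Ccr2, and for AFFN1 -0.61 to 1.30 for Ccr2 and -0.28 to 2.06 for Ccl3. Between the fusions on day 14 they were -0.31 to 2.26 for Ccr9, -0.24 to 1.21 for Ccl3, -0.32 to 0.85 for S1pr1, -2.03 to 0.10 for Ccr2 and -1.14 to 0.30 for Ccl4. For the change of the AFFN1 effect they were -0.51 to 0.34 for Cxcr5, -0.23 to 0.71 for Ccl9 and -0.82 to 1.50 for Ccl3, and for Ccr9 in control cells between the days -0.93 to 0.01. Ccr6, with 5 counts in all, is below what this depth can compare.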
